A study of Homo sapiens with 8 samples.

Results

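Core spliceosome genes are described here in human melanoma tumours grown in mice, with and without the induction of Omomyc. The 53 genes listed encode the Sm and LSm ring proteins, the proteins of the U1, U2, U5, U4/U6 and U11/U12 small nuclear ribonucleoproteins (snRNPs), the tri-snRNP and the PRP19 complex. They were chosen by gene symbol, with the row of highest mean where a gene had more than 1, and 51 of them were among the 17492 genes tested. LSM2 and PRPF8 were not analysed here.

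The tumours were SkMel147, an established human melanoma cell line, grown subcutaneously in BALB/c nude mice, which lack a thymus and so have few mature T cells but keep myeloid and natural killer cells. All 8 tumours came from cells in which doxycycline induces Omomyc, a dominant negative form of MYC made from its region for DNA binding and dimerization. The 4 vehicle tumours came from mice that drank the vehicle and the 4 doxycycline tumours from mice that drank doxycycline, starting at a tumour size of 100 mm3 and lasting 7 days. Each tumour gave 1 Affymetrix array, whose values are on the log2 scale. No group received doxycycline without the transgene, so effects of the drug and of Omomyc cannot be told apart. The labels call the arrays biological replicates without saying whether each tumour came from its own mouse, so the p-values measure the spread between these tumours.

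The spliceosome removes introns from pre-messenger RNA. It is built anew on each intron from snRNPs, each a small nuclear RNA with a ring of Sm proteins (LSm proteins on U6) and a set of proteins of its own. U1 marks the start of the intron and U2 the branch site near its end. The tri-snRNP of U4/U6 and U5 then joins, and with the PRP19 complex it is rearranged into the catalytic form. MYC is known to raise the demand for splicing by raising transcription, and genes of the Sm assembly machinery are among its described targets.

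No member rose in doxycycline tumours, and 12 of 51 (23.5%) fell by limma at an adjusted p under 0.05, where 6.03% of all genes fell and 4.75% rose. Those that fell were the Sm genes SNRPF, SNRPD1, SNRPG, SNRPE and SNRPD2, the LSm genes LSM4 and LSM3, SNRPA of U1, SNRPA1 and U2AF1 of the U2 stage, TXNL4A of U5 and CDC5L of the PRP19 complex. TXNL4A was 12.9-fold lower with doxycycline. Apart from it the falls were small, between 1.49-fold for U2AF1 and 2.58-fold for SNRPF. The median difference of the 51 members was -0.29 (log2), beside 0.04 for all genes, and 42 members lay below the median of all genes. Means were lower with doxycycline for 78.4% of members and 45.8% of all genes. All 4 doxycycline tumours lay below all 4 vehicle tumours for 18 members (35.3%), which is so for 8.83% of all genes, and for 0 members did they all lie above (8.86% of all genes). The members were bright, with a median percentile of mean level of 89.2 among all genes. Without the dimmest 40% of genes, 25.5% of members fell beside 11.1% of all genes. The groups then lay apart, doxycycline below, for 35.3% of members beside 13% of all genes. In bulk tumours, fewer cells of a type and less RNA per cell cannot be told apart.

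**Figure D1:**
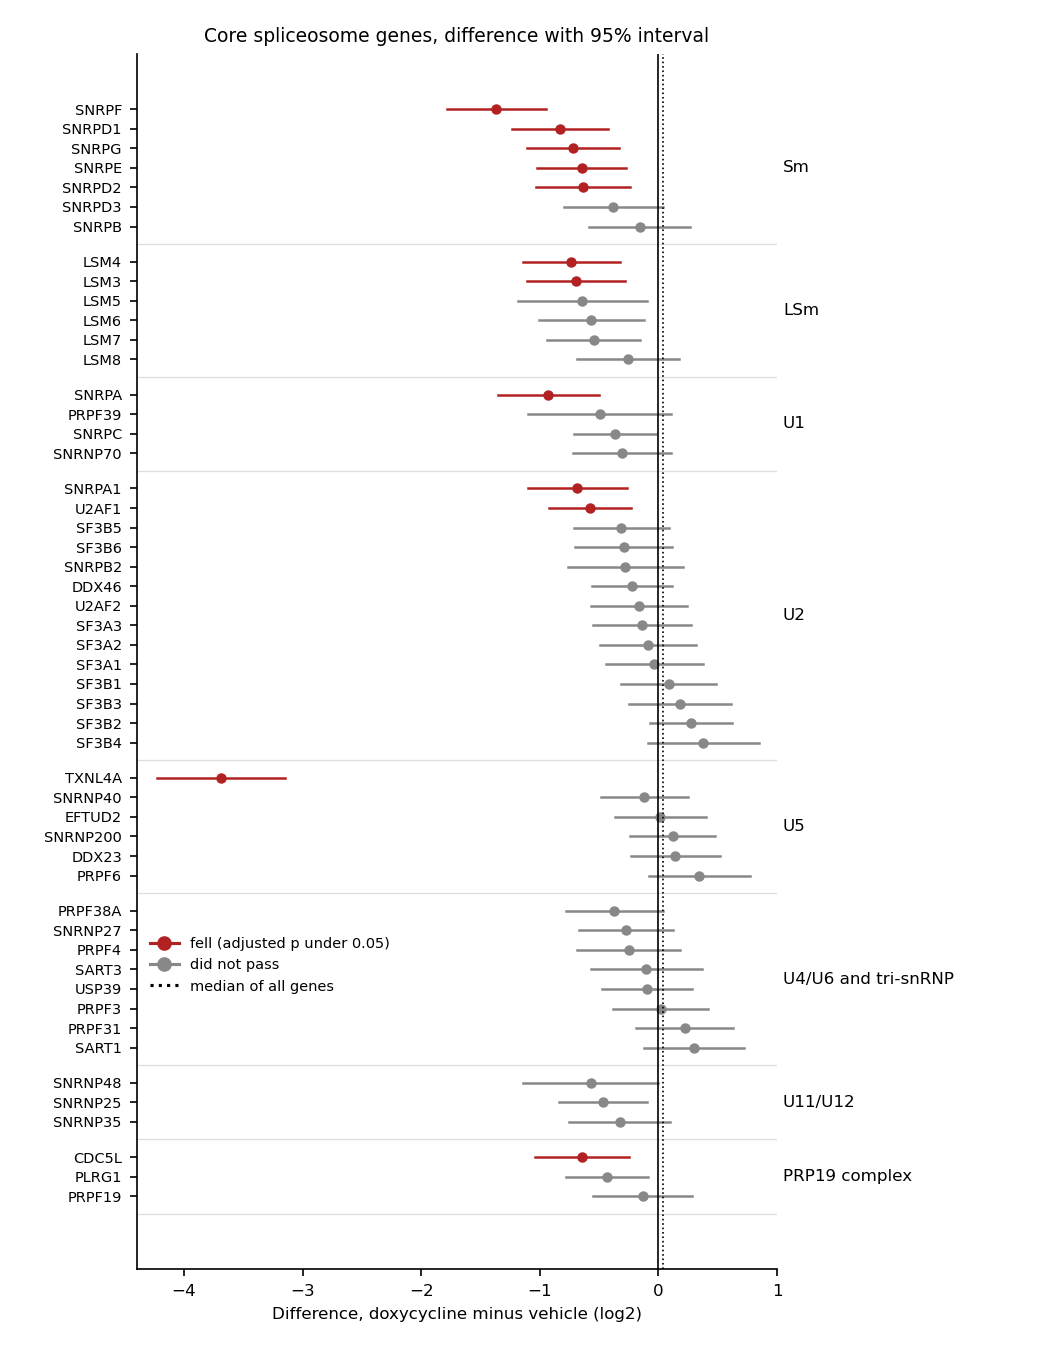
Difference between doxycycline and vehicle tumours (horizontal axis, log2) for each of the 51 members, grouped by role, with limma's 95% interval as a bar. The 12 genes that fell are red, the dotted line marks the median of all genes at 0.04, and TXNL4A at -3.68 stands far to the left of every other member.

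**Figure D2:**
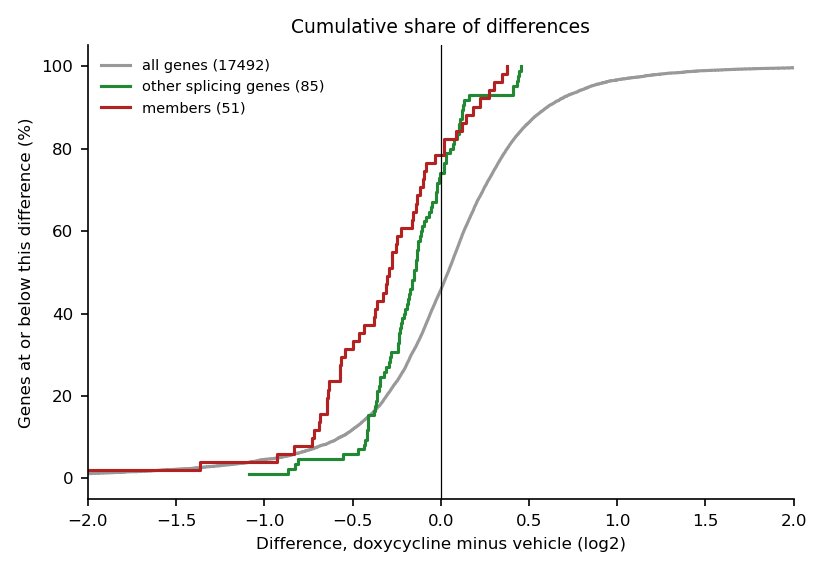
Share of genes (vertical axis, percent) at or below each difference between doxycycline and vehicle (horizontal axis, log2, drawn from -2 to 2) for the 51 members, 85 other splicing genes and all 17492 genes. The curve of the members lies left of that of all genes over most of the axis, and 1 member, TXNL4A, lies beyond its left end.

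Calls of most members were close to the threshold. Of the 12 that fell, 4 had an adjusted p under 0.02 (TXNL4A, SNRPF, SNRPA and SNRPD1), and the other 8 lay between 0.0247 and 0.0456 (limma). With 1 tumour left out, the number of members that fell was 4, 11, 4 and 5 without vehicle replicates 1 to 4, and 6, 6, 4 and 7 without doxycycline replicates 1 to 4, or 7.84% to 21.6% of members beside 4.28% to 6.04% of all genes. TXNL4A, SNRPF and SNRPA passed in all 8 of these fits, and SNRPD1 in all but that without vehicle replicate 3 (limma adjusted p = 0.0511). Centring each array on cytosolic ribosomal protein genes, whose own median was -0.26, left TXNL4A and SNRPF as the 2 members that fell. This was 3.92% of members, near the 3.84% of all genes that fell in that fit, while 10.4% of all genes rose. The median of all genes then was 0.29 and that of the members -0.04. Centring shifts all genes alike, so the number of members below the median of all genes, 42, could not change.

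Other features of the arrays moved with the groups. The mean of 6 fibroblast markers was 5.16 to 6.35 in vehicle and 6.72 to 8.01 in doxycycline tumours, with 6 of 6 markers higher and COL1A1, COL1A2 and PDGFRA past the test. The mean of 6 macrophage and myeloid markers was 4.11 to 4.62 in vehicle and 4.66 to 5.51 in doxycycline tumours, with 5 of 6 higher and LYZ past the test. Of the latter, CD68 averaged 8.15 and 8.98, and PTPRC, carried by all leukocytes, 2.38 and 1.91, below the arrays' lower quartiles. The array is made for human sequence, and how far it reads mouse RNA was not tested. The mean of 14 cell division genes was 7.79 to 8.49 in vehicle and 5.60 to 5.92 in doxycycline tumours, and all 14 fell. The part of these shifts in the results on spliceosome genes was not tested. Among melanocyte markers, SOX10 and MITF averaged 6.53 and 5.22 in vehicle tumours, while MLANA, PMEL, TYR and TYRP1 averaged 2.21 to 3.26, near or below the arrays' lower quartiles of 3.03 to 3.23, so the pigment genes were at the dim end of the arrays. The mean of 5 markers of undifferentiated melanoma was 7.48 to 7.67 in vehicle and 7.87 to 8.47 in doxycycline tumours, with 5 of 5 higher. NGFR rose, from 5.99 to 8.05 (limma adjusted p = 0.0310), and AXL (7.83 and 8.46) and NT5E (10.99 and 11.01) did not pass. The part of this shift was not tested either. Vehicle replicate 2 and doxycycline replicate 4 had the highest lower quartiles and the lowest upper quartiles. Without both of them, 5 members fell (9.8%, beside 5.15% of all genes), TXNL4A, SNRPF and SNRPA among them.

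The DNA just before the start of 4 members is shown because Omomyc and MYC bind the E-box, written CACGTG, which reads the same on both strands. TXNL4A and SNRPF had the largest falls, and SF3B1 and SNRNP48 hold an E-box. Capitals mark CACGTG and the related form CACGCG, searched on both strands and added after the data were seen. Each sequence is the 250 bases before a transcript start in RefSeq (GRCh38.p14), written in the direction of the gene. They lie at chr18:79988564-79988813 (minus strand, TXNL4A, the first of 2 listed starts), chr12:95858702-95858951 (plus strand, SNRPF), chr2:197435029-197435278 (minus strand, SF3B1, the first of 2 listed starts) and chr6:7589948-7590197 (plus strand, SNRNP48).
TXNL4A: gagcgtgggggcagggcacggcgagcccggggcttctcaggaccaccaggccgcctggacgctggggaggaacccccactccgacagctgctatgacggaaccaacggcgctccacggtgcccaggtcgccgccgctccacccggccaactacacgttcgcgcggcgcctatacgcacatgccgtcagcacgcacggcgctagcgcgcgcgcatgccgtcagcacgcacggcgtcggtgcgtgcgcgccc
SNRPF: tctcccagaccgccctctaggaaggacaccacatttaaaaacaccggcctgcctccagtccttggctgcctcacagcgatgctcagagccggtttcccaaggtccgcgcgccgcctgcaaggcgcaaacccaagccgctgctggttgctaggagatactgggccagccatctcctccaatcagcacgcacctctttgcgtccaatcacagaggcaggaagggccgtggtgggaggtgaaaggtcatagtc
SF3B1: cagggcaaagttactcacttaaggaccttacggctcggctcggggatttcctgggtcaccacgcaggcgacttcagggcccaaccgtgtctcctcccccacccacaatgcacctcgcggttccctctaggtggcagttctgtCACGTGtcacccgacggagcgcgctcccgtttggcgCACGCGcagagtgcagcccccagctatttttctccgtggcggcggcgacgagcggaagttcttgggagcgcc
SNRNP48: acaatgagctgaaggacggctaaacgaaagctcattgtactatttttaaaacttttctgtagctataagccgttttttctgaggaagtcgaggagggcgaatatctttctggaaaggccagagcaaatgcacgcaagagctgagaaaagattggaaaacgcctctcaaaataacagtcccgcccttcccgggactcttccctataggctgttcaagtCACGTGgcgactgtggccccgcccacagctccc
The E-box of SF3B1 begins 108 bases before the start and its CACGCG 72 bases before, and the E-box of SNRNP48 begins 33 bases before. RefSeq promoters were at hand for 46 of the 53 genes. CACGTG was found before at least 1 start of 3 of the 44 measured members with a promoter (6.82%), namely SF3B1, EFTUD2 and SNRNP48, and none of the 3 passed the test. It was found before 0 of the 11 members that fell and had a promoter. Among all genes tested with a promoter, 9.70% held CACGTG, and 12.9% of those that fell. CACGCG was found in 10 of the 44 members (22.7%) and in 16.0% of all genes tested that have a promoter. It was found in 2 of the 11 members that fell (18.2%), LSM4 and U2AF1, and in 25.8% of all genes that fell and have a promoter. The absence of these letters says nothing of binding outside this window.

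The Sm proteins form a ring of 7 around the snRNA and are the part shared by the U1, U2, U4, U5, U11 and U12 snRNPs. All 7 Sm genes had lower means with doxycycline, 5 fell, and their median difference was -0.65. Of all genes, 45.8% had lower means and 6.03% fell. SNRPF, the F protein of the ring, was 8.25, 8.42, 8.29 and 8.07 in vehicle tumours 1 to 4 and 6.49, 7.16, 6.96 and 6.94 in doxycycline tumours 1 to 4. The groups lay far apart, and doxycycline replicate 1 was the lowest. The difference was -1.36 ± 0.19 (SE; limma adjusted p = 0.00113), and it stayed between -1.46 and -1.11 under every alternative tried.

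SNRPD1, the D1 protein, was 8.23, 8.65, 8.59 and 8.09 in vehicle tumours and 7.56, 7.43, 7.60 and 7.65 in doxycycline tumours. Its doxycycline values were close together (7.56 ± 0.09, SD, n = 4) and the vehicle values spread more widely (8.39 ± 0.27, SD, n = 4). The difference was -0.83 ± 0.18 (SE; limma adjusted p = 0.0149). SNRPG, the G protein, was 8.46, 8.58, 8.62 and 8.28 against 7.89, 7.46, 7.80 and 7.90, a difference of -0.72 ± 0.18 (SE; limma adjusted p = 0.0247). SNRPE, the E protein, was 10.53, 10.49, 10.91 and 10.51 against 9.99, 9.87, 9.89 and 10.10, a difference of -0.65 ± 0.17 (SE; limma adjusted p = 0.0337). The groups of both genes were apart, and vehicle replicate 3 was the highest tumour of each. SNRPD2, the D2 protein, was 9.11, 9.29, 8.78 and 8.83 against 8.24, 8.35, 8.34 and 8.54, a difference of -0.63 ± 0.18 (SE; limma adjusted p = 0.0456), and here the lowest vehicle and the highest doxycycline tumour were close.

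The remaining Sm genes did not pass. SNRPD3, the D3 protein, was 8.93, 8.81, 9.23 and 8.95 in vehicle and 8.21, 8.66, 8.78 and 8.75 in doxycycline tumours. The groups did not overlap, but the adjusted p was 0.256 (limma). SNRPB, which encodes the B proteins, differed by -0.16 with a 95% interval of -0.58 to 0.27, and its groups overlapped, with vehicle replicate 1 at 8.50 and doxycycline replicate 4 at 8.25 as the highest of each. The calls of SNRPE, SNRPG and SNRPD2 ended when certain single tumours were left out. SNRPD2 lost its call in each of the 8 fits without 1 tumour (limma adjusted p from 0.0572 to 0.119). SNRPE lost it in 6 of them (up to 0.0969), all but those without vehicle replicate 2 or doxycycline replicate 4, and SNRPG in 4 (up to 0.0747), those without vehicle replicate 1 or 3 or doxycycline replicate 2 or 3. Sm and LSm genes have processed pseudogenes, and whether the probes tell these apart is not known.

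LSM2 to LSM8 encode the ring that binds the end of U6 RNA. All 6 measured LSm genes had lower means with doxycycline, with a median difference of -0.60, and LSM4 and LSM3 fell. LSM4 was 8.47, 7.99, 7.98 and 8.17 in vehicle and 7.31, 7.45, 7.25 and 7.66 in doxycycline tumours, a difference of -0.73 ± 0.18 (SE; limma adjusted p = 0.0279). LSM3 was 8.45, 8.22, 8.65 and 8.25 against 8.04, 7.69, 7.57 and 7.505, a difference of -0.69 ± 0.19 (SE; limma adjusted p = 0.0386). Both genes had groups that did not overlap, with the highest doxycycline value in replicate 4 for LSM4 and in replicate 1 for LSM3. LSM7, at -0.54 ± 0.18 (SE), was the nearest member to the threshold that did not pass (limma adjusted p = 0.0819), and its groups did not overlap either. It passed when the dimmest genes were left out of the fit (limma adjusted p = 0.0390), and also under a trended and robust prior (0.0465).

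LSM5 and LSM6 differed by -0.64 ± 0.24 and -0.56 ± 0.20 (SE), values like that of LSM3, with limma adjusted p of 0.133 and 0.109. Their vehicle tumours varied more, from 7.22 to 8.39 for LSM5 and from 6.94 to 7.63 for LSM6, and overlapped the doxycycline tumours. LSM8, the subunit that is particular to the nuclear LSm ring, was at -0.26 with a 95% interval of -0.68 to 0.17. LSM4 lost its call in 5 of the 8 fits without 1 tumour (limma adjusted p up to 0.0847), those without vehicle replicate 1 or 4 or doxycycline replicate 1, 2 or 3. LSM3 lost it in 6 (up to 0.111), all but those without vehicle replicate 2 or doxycycline replicate 1. Together, 7 of the 13 Sm and LSm genes fell, all 13 were below 0, and their median was -0.64. Of the 38 remaining members, 5 fell, 27 were below 0, and the median was -0.19. Among all genes, 6.03% fell and 45.8% were below 0. The difference between these sets was not tested.

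**Figure D3:**
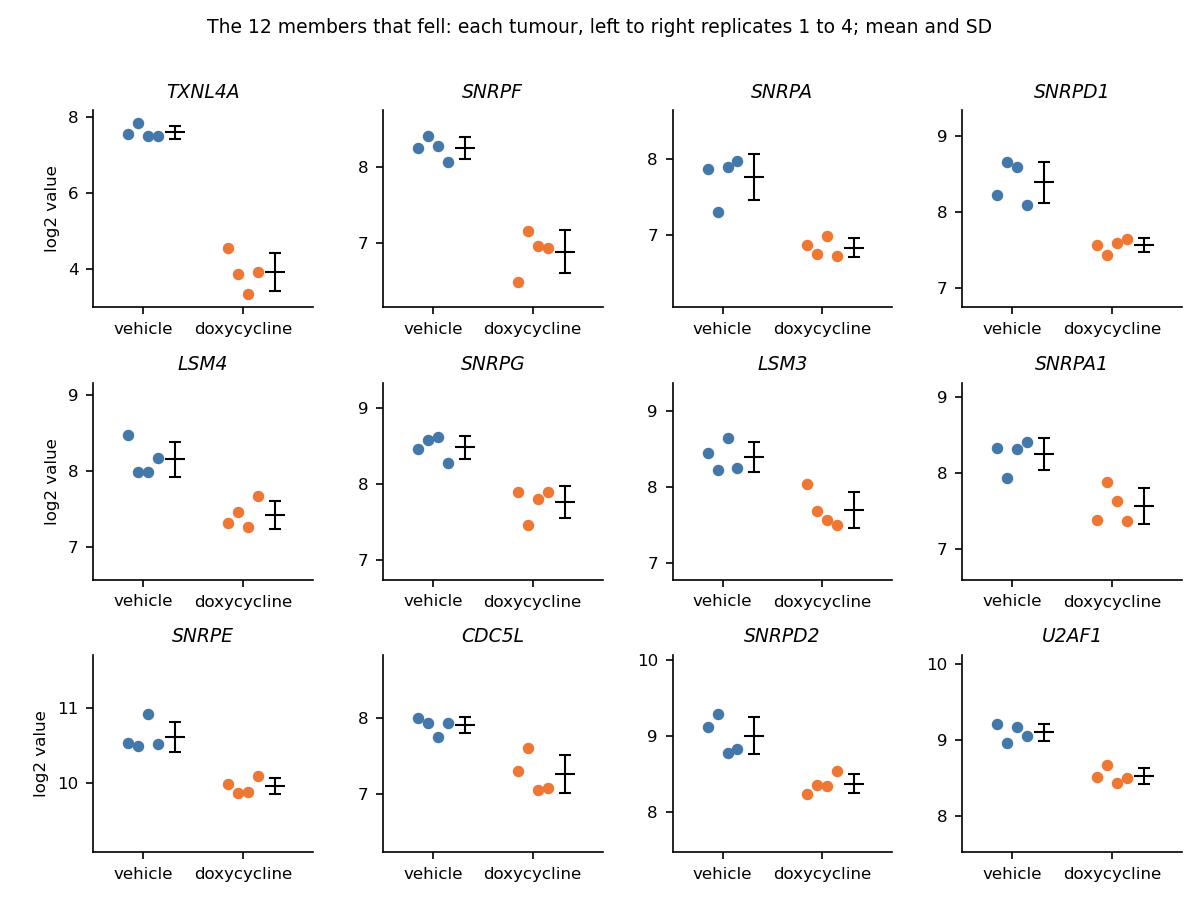
Log2 values (vertical axes) of the 12 members that fell, in each vehicle (blue) and doxycycline (orange) tumour, with points from left to right as replicates 1 to 4 and the mean and SD beside them. In each panel all 4 doxycycline tumours lie below all 4 vehicle tumours, and the vertical axis of TXNL4A spans a wider range than the others.

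U1 recognises the start of the intron. SNRPA, the A protein, which binds a loop of U1 RNA, was 7.86, 7.30, 7.90 and 7.97 in vehicle and 6.87, 6.75, 6.99 and 6.72 in doxycycline tumours. Vehicle replicate 2 lay well below the other vehicle tumours, yet above every doxycycline tumour. The difference was -0.93 ± 0.19 (SE; limma adjusted p = 0.0111), the third largest fall among members. With arrays centred on ribosomal protein genes it was -0.68 and did not pass (limma adjusted p = 0.0704).

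SNRPC, the C protein, which steadies the pairing of U1 with the intron, was 7.02, 7.03, 6.95 and 7.08 in vehicle and 6.47, 6.78, 6.72 and 6.66 in doxycycline tumours. These groups did not overlap, but at -0.36 ± 0.16 (SE) the gene missed the threshold (limma adjusted p = 0.186). SNRNP70, the 70K protein, differed by -0.31 (95% interval -0.72 to 0.11), with overlapping groups. PRPF39, a U1-associated factor, differed by -0.50, and its doxycycline tumours ranged widely, from 4.56 in replicate 3 to 6.01 in replicate 1.

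U2 pairs with the branch site, helped by U2AF, which binds the end of the intron. Of 14 genes of this stage, SNRPA1 and U2AF1 fell, and 12 did not pass. Of all genes, 6.03% fell. SNRPA1, the A' protein of U2, was 8.33, 7.94, 8.32 and 8.41 in vehicle and 7.38, 7.88, 7.63 and 7.37 in doxycycline tumours, a difference of -0.68 ± 0.19 (SE; limma adjusted p = 0.0429). The lowest vehicle and the highest doxycycline tumour, both replicate 2, nearly met. Its partner SNRPB2, the B'' protein, differed by -0.28 (95% interval -0.76 to 0.21), with overlapping groups. SNRPA1 lost its call in 6 of the 8 fits without 1 tumour (limma adjusted p up to 0.110), all but those without vehicle replicate 2 or doxycycline replicate 2.

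U2AF1, the small subunit that reads the end of the intron, was 9.21, 8.96, 9.17 and 9.05 in vehicle and 8.51, 8.66, 8.43 and 8.50 in doxycycline tumours, a difference of -0.57 ± 0.16 (SE; limma adjusted p = 0.0404). The tumours of each group were close together and the groups were apart. A further row for U2AF1 differed by -0.56, and because the human reference holds a near-identical copy of this gene, the rows may read both. U2AF2, the large subunit that binds the pyrimidine tract, differed by -0.16 (95% interval -0.57 to 0.24). U2AF1 lost its call in 7 of the 8 fits without 1 tumour (limma adjusted p up to 0.110), all but that without vehicle replicate 2.

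Of the 9 member genes of the SF3A and SF3B complexes, which clamp U2 RNA onto the branch site, 0 passed the test. Of all genes 10.8% passed in either direction, so 0 of 9 is near the share of all genes. The differences of these 9 ran from -0.31 for SF3B5 to 0.38 for SF3B4, and 5 of 9 were below 0, beside 45.8% of all genes. PHF5A, a further SF3B subunit that is not among the members, differed by -0.43 ± 0.16 (SE; limma adjusted p = 0.116). Its groups did not overlap, with the doxycycline tumours lower. SF3B1, the branch site clamp itself, was 8.10, 8.36, 8.005 and 8.35 in vehicle and 8.49, 8.29, 7.996 and 8.39 in doxycycline tumours. The groups coincided, and the 95% interval of the difference was -0.31 to 0.48. SF3B4 was the member with the highest difference, at 0.38 ± 0.21 (SE; limma adjusted p = 0.320), and its groups overlapped. SF3B2 and SF3B3, scaffolds of the complex, differed by 0.27 and 0.18. SF3B6, the small subunit next to the branch adenosine, differed by -0.29. SF3A1, SF3A2 and SF3A3 differed by -0.03, -0.09 and -0.14, values that turned positive with arrays centred on ribosomal protein genes. DDX46, the helicase that prepares U2 for binding, was lower in every doxycycline tumour than in every vehicle tumour, but by only 0.22 on average, with vehicle at 7.61 ± 0.10 and doxycycline at 7.39 ± 0.05 (SD, n = 4). It did not pass (limma adjusted p = 0.424).

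U5 holds the ends of the exons together. TXNL4A encodes its smallest core protein, DIM1, which must leave before the spliceosome is activated. TXNL4A was 7.53, 7.83, 7.48 and 7.498 in vehicle and 4.53, 3.85, 3.32 and 3.91 in doxycycline tumours. The lowest vehicle tumour exceeded the highest doxycycline tumour by 2.95. The difference was -3.68 ± 0.24 (SE; limma adjusted p = 2.89e-05), the 6th largest fall of all 17492 genes. It stayed between -3.89 and -3.43 under every alternative tried, with adjusted p up to 0.000614. The doxycycline values were not far above the lower quartiles of those arrays (3.07 to 3.23), and how far they lay above background is unknown. The gene has 1 row on this array.

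The 5 other measured U5 genes showed no such fall. SNRNP200, the helicase that unwinds U4 from U6, was 9.13, 8.81, 8.998 and 9.06 in vehicle and 8.94, 9.20, 9.24 and 9.10 in doxycycline tumours, a difference of 0.12 (95% interval -0.24 to 0.48). EFTUD2, the GTPase of U5, differed by 0.02 (95% interval -0.37 to 0.40), and its sign turned with single tumours left out. DDX23, the helicase that releases U1, differed by 0.14, and SNRNP40 by -0.12. PRPF6, the bridge between U5 and U4/U6, differed by 0.34 ± 0.19 (SE; limma adjusted p = 0.316), with overlapping groups. The mean of these 5 genes in a tumour was 7.74 to 7.89 with vehicle and 7.84 to 7.98 with doxycycline.

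**Figure D4:**
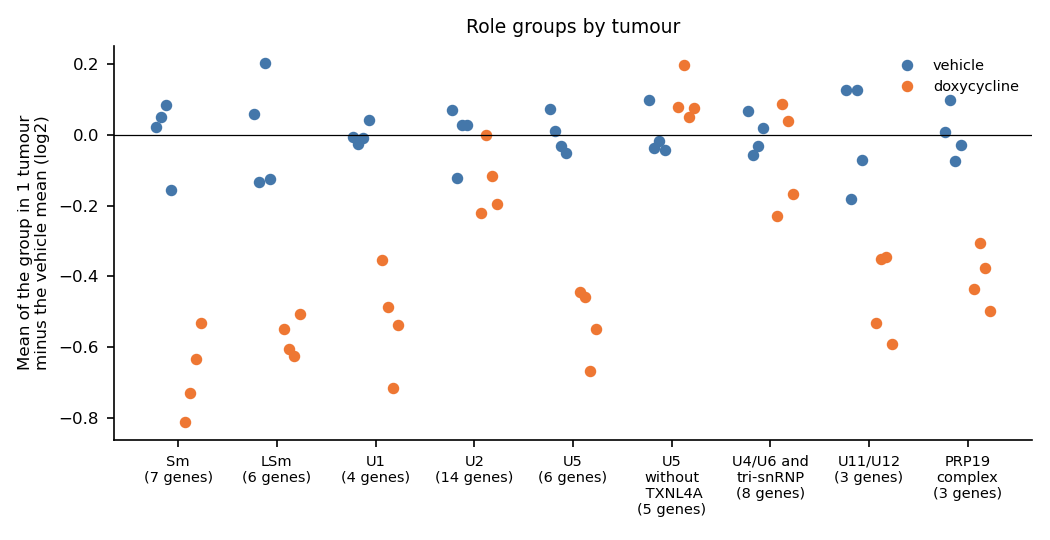
Mean of the measured genes of each role group in each tumour, minus the mean of the 4 vehicle tumours (vertical axis, log2), with vehicle tumours blue and doxycycline tumours orange. Doxycycline tumours lie below all vehicle tumours for the Sm, LSm, U1, U11/U12 and PRP19 groups and overlap them for U2 and for U4/U6 and tri-snRNP, and the low position of U5 is not seen once TXNL4A is left out.

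None of the 8 genes of U4/U6 and the tri-snRNP passed, where 10.8% of all genes passed in either direction. The median difference of the 8 was -0.10. PRPF38A, which joins with the tri-snRNP, had the largest difference at -0.37 ± 0.19 (SE; limma adjusted p = 0.259). It was 9.05, 8.76, 8.98 and 9.20 in vehicle and 8.48, 8.96, 8.65 and 8.42 in doxycycline tumours, and doxycycline replicate 2 lay within the vehicle range. PRPF3, PRPF4 and PRPF31, the proteins bound to the U4/U6 pair, differed by 0.02, -0.25 and 0.22. SNRNP27 and SART1, proteins of the tri-snRNP, differed by -0.27 and 0.30, so the signs within this group were mixed. USP39, needed to keep the tri-snRNP together, differed by -0.09, and SART3, which rebuilds U4/U6 after splicing, by -0.10. Averaged over the group, vehicle tumours stood at 7.56 ± 0.06 and doxycycline tumours at 7.49 ± 0.15 (SD, n = 4), and they overlapped.

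U11 and U12 act in place of U1 and U2 on the rare minor introns. Of their 3 listed proteins none passed, although all had lower means with doxycycline, as did 45.8% of all genes. SNRNP25 was 5.82, 5.84, 6.17 and 5.71 in vehicle and 5.30, 5.49, 5.46 and 5.43 in doxycycline tumours, groups that did not overlap, with a difference of -0.46 ± 0.17 (SE; limma adjusted p = 0.113). SNRNP48 differed by -0.57 ± 0.26 (SE; limma adjusted p = 0.205) with vehicle replicate 2, at 5.59, inside the doxycycline range. Without that tumour it differed by -0.81 and passed (limma adjusted p = 0.0311). SNRNP35 differed by -0.33 (95% interval -0.75 to 0.10).

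The PRP19 complex steadies the catalytic spliceosome. CDC5L, one of its core subunits, was 8.003, 7.94, 7.75 and 7.93 in vehicle and 7.30, 7.61, 7.05 and 7.08 in doxycycline tumours, a difference of -0.64 ± 0.18 (SE; limma adjusted p = 0.0438). Doxycycline replicate 2 came close to the lowest vehicle tumour. Its call was lost in 7 of the 8 fits without 1 tumour (limma adjusted p up to 0.115), all but that without doxycycline replicate 2. It was also lost with arrays centred on their medians (0.0513) and with array weights (0.0501). PLRG1, a subunit bound to CDC5L, was 7.80, 7.59, 7.55 and 7.80 against 7.25, 7.30, 7.32 and 7.14. Its groups did not overlap, but at -0.43 ± 0.16 (SE) it missed the threshold (limma adjusted p = 0.117). PRPF19, the ubiquitin ligase that names the complex, differed by -0.13 (95% interval -0.55 to 0.28).

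Of 102 further gene symbols listed for the pathway, 85 were measured. NHP2L1 and CCDC94, counted as not measured, are former symbols of SNU13 and YJU2, which were measured. Of the 85, 3 (3.53%, beside 6.03% of all genes) fell and none rose, with a median difference of -0.15. With 1 tumour left out, 1 fell without vehicle replicate 1 or 3 or doxycycline replicate 1, 2 or 3, where 4.28% to 5.44% of all genes fell. With a trended and robust prior 5 of the 85 fell, where 6.96% of all genes did. Of 18 genes that assemble the Sm ring or move snRNA between nucleus and cytoplasm, GEMIN8 and GEMIN4, subunits of the SMN complex, fell by 1.09 ± 0.19 and by 0.86 ± 0.24 (SE; limma adjusted p of 0.00495 and 0.0456). GEMIN8 kept its call in all 8 fits without 1 tumour. It was dim, averaging 4.85 with vehicle and 3.76 with doxycycline, and was not tested in the fit without the dimmest genes. Of the fits without 1 tumour, GEMIN4 kept its call only in that without doxycycline replicate 4 (limma adjusted p up to 0.128 in the others). GEMIN4 also lost it with quantile normalization on top (0.0536), with arrays centred on their medians (0.0547) and after centring on ribosomal protein genes (0.109). PRMT5, the methyltransferase that prepares Sm proteins for the ring, differed by -0.42 (limma adjusted p = 0.276), and its partners WDR77 and CLNS1A by -0.05 and 0.07. Of 15 other U1 and U2 factors, DHX15, the helicase that takes spent spliceosomes apart, fell by 0.83 ± 0.23 (SE; limma adjusted p = 0.0406). It kept its call without vehicle replicate 2 or 4 and lost it in the other 6 fits without 1 tumour (limma adjusted p up to 0.116). It also lost it after centring on ribosomal protein genes (0.132) and without vehicle replicate 2 and doxycycline replicate 4 together (0.0510). None passed among 13 genes listed under the B complex and snRNP recycling, 27 PRP19-related and catalytic step proteins, 6 exon junction complex genes and 6 other U11/U12 proteins. Their medians were -0.10, -0.14, -0.23 and -0.13. Of all genes, 10.8% passed in either direction. The list of 13 also holds LSM1, of the cytoplasmic mRNA decay ring, and NAA38, an acetyltransferase subunit, which do not belong to these steps.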

How the data were processed

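Each tumour, 4 vehicle and 4 doxycycline by their sample titles, gave 1 Affymetrix array. The values the authors deposited are log2 signals from RMA, according to the submitters' processing notes. RMA subtracts background and makes the probe distributions of all arrays equal, which would hide part of a change common to most transcripts. Software versions, the probe definition and filters were not given in the sources used here. Of 18569 rows, 17511 carry 1 gene symbol in the platform annotation, 0 carry several and 1058 none here, and all 17511 gene IDs matched RefSeq with the same symbol. Where a gene had several rows (17 genes), the row of highest mean was kept, which gave 17492 genes without a filter.

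Groups were compared in limma 3.58.1 (R 4.3.3; lmFit, eBayes, two-sided), with p-values adjusted by Benjamini-Hochberg across the 17492 genes and called under 0.05. SE is the moderated standard error. Members and lists were chosen with earlier results of these data known, so lists are described by counts and medians and were not tested. All measured members could be named, and from the further splicing lists the called genes. PRMT5, WDR77, CLNS1A, PHF5A, NAA38, SNU13 and YJU2, and marker genes other than the 2 brightest of a list, were named outside this rule. Promoters of called members with CACGTG were to be printed. There were none, and 4 others were chosen after their values were seen. Promoters are RefSeq's (GRCh38.p14), searched in Python 3.11.15. The array's build is not named, and no other coordinates are printed. Alternatives were quantile normalization on top, centring on medians or on 30 ribosomal protein genes, a fit without the dimmest 40% of genes, another prior (trended and robust), weights for arrays, a replicate block, averaging a gene's rows, and leaving out arrays. Vehicle replicate 2 and doxycycline replicate 4 were left out together because an earlier look at the data had shown their quartiles apart. The fit was also run on simulated data. The number of arrays limits the precision, and signal over background is unknown.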

Additional observations from a re-analysis of the deposited data

Results flagged for a closer look

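In groups of 4 arrays, a value was picked out where its gap to the nearest other array took up more of the group's range than Dixon's 95% critical value for 4 samples. Of 102 groups examined, 6 were picked out, and chance gives about 1 in 20.

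Among vehicle tumours, SNRPB was high in replicate 1 at 8.50, with the others at 7.95 to 8.03, and SNRPE was high in replicate 3 at 10.91, with the others at 10.49 to 10.53. In vehicle replicate 2, SNRPA was low at 7.30 (others 7.86 to 7.97) and TXNL4A was high at 7.83 (others 7.48 to 7.53). Among doxycycline tumours, SART1 was low in replicate 1 at 6.09, with the others between 6.48 and 6.505, and SNRNP35 was low in replicate 4 at 5.94, with the others at 6.07 to 6.09. SNRPA and TXNL4A kept their calls without vehicle replicate 2.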

How the results depend on the processing

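The 12 members that fell stayed below 0 in all 204 values recomputed for them over 17 alternatives. Leaving out or weighting arrays could not turn these signs, since the groups of these members did not overlap. Another prior, the replicate block and leaving out the dimmest genes do not alter the differences. Of the 204 values, 125 kept their call. TXNL4A and SNRPF kept theirs in all 17, and SNRPA in all but 1. With arrays centred on ribosomal protein genes, 2 members fell (3.92%, beside 3.84% of all genes) and the members' median was -0.042. All doxycycline tumours lay below all vehicle tumours for 7 members (13.7%, beside 4.5% of all genes) and above for 4. Of all genes, 671 fell and 1826 rose (26.9% of calls fell, 55.9% as deposited). Of the other splicing genes, 1 fell and 1 rose. With a trended and robust prior, 5 of the 85 other splicing genes fell, where 6.96% of all genes did. The number of members with all doxycycline tumours above was 1 with quantile normalization on top, with arrays centred on their medians, and without vehicle replicate 2 and doxycycline replicate 4 together. Without both, 5 members fell (9.8%, beside 5.15% of all genes). The share of all genes with all doxycycline tumours above was taken only for the deposited values (8.86%). Leaving out the dimmest 40% of genes, 25.5% of members fell beside 11.1% of all genes. With 1 tumour left out, members that fell numbered 4 to 11, those with all doxycycline tumours above 0 to 2, those with all below 18 to 23, called genes 1252 (without vehicle replicate 3) to 1760, genes that rose 503 to 727, genes that fell 748 to 1057, and other splicing genes that fell 1 to 3. The members' median was then -0.32 to -0.21.

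No sign was seen that the replicate numbers pair the tumours, though a weak pairing could be missed. Deviations from the group means correlated at -0.05, -0.15, 0.03 and -0.16 for the 4 pairs, and 0 of 8 tumours correlated best with their own number. With the replicate number as a block, 3 members fell (TXNL4A, SNRPF and SNRPA), or 5.88% beside 4.52% of all genes. The genes that rose numbered 502 and the genes that fell 791, and GEMIN4 lost its call (limma adjusted p = 0.110).

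Among members that did not pass, centring on ribosomal protein genes, which lifts all genes, turned the sign of SNRPB (0.094), SF3A1 (0.22), SF3A2 (0.17), SF3A3 (0.11), U2AF2 (0.087), DDX46 (0.027), SNRNP40 (0.13), PRPF4 (0.0017), SART3 (0.15), USP39 (0.16) and PRPF19 (0.12). Quantile normalization on top turned EFTUD2 (-0.0046) and PRPF3 (-0.025). Without vehicle replicate 2 and doxycycline replicate 4 together, PRPF3 was at -0.025 and SART3 at 0.053. With 1 tumour left out, SF3A1 ranged from -0.14 to 0.047, EFTUD2 from -0.093 to 0.096, PRPF3 from -0.072 to 0.10 and SART3 from -0.19 to 0.087. The cause was not tested. The 4 arrays per group limit what can be called.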

Other observations

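Several relatives of the members, picked after their values were seen, did not pass. TXNL4B, the paralogue of TXNL4A, averaged 7.29 ± 0.10 with vehicle and 7.31 ± 0.33 with doxycycline (SD, n = 4), a difference of 0.02 ± 0.20 (SE; limma adjusted p = 0.969). The 4 measured protein-coding genes nearest to TXNL4A on its chromosome were SLC66A2, HSBP1L1, ADNP2 and PARD6G. They differed by -0.37, -0.14, 0.36 and -0.80, and none passed limma (adjusted p of 0.448, 0.752, 0.476 and 0.0623). LSM1, which takes the place of LSM8 in the cytoplasmic ring that acts in mRNA decay, differed by 0.13 ± 0.17 (SE). LSM10 and LSM11, the LSm proteins of the U7 snRNP of histone mRNA processing, differed by 0.36 ± 0.22 and -0.10 ± 0.26 (SE).

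The differences of the 51 members and the genomic spans of their genes had a Spearman correlation of 0.31, beside 0.02 over 17082 genes tested. Genes measured on the same arrays are not independent points.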
